A study of Homo sapiens with 4 samples.

Results

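Oncogene-induced senescence (OIS) was compared with proliferation (Grow) in the human lung fibroblast line IMR90, at normal levels of the chromatin protein HMGA1, by subtracting the Grow Hi-C map from the OIS map. Hi-C ligates and sequences pieces of DNA that were neighbours in nuclear space, and each deposited value is a contact score for 2 bins of about 200 kb on the same chromosome, relative to other bins the same distance apart. All autosomal bin pairs with a score in both maps were used, 3639990 pairs of the 4358212 listed in Grow and the 3856709 listed in OIS. Of the 14444 bins in the bin list 13547 are autosomal, and 12525 of these were kept because at least 50% of their distal pairs (over 2 Mb apart) were listed in both maps. The labelled cells carried ER:HRAS G12V, a RAS protein that 4OHT switches on, and OIS cells received 100 nM 4OHT for 6 days, whereas growing cells received none. The labels cover 4 samples, 2 growing and 2 in OIS, in which a short hairpin RNA (shA1) lowered HMGA1. The Grow and OIS maps without shA1 came from an earlier data set of the laboratory and match no labelled sample, so their vector and the number of replicates pooled in them are not given in the sources used here. There was 1 map per condition and the files give no read counts. The error between replicates is therefore not known for any difference below, the depth behind a score is not known from the files, and every value is a description of these maps.

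Chromatin separates in the nucleus into an active, gene-rich A compartment and an inactive, gene-poor B compartment, and regions tend to contact others of their own kind. In growing fibroblasts much of the B compartment lies against the nuclear lamina. In RAS-induced senescence lamin B1 is lost and heterochromatin gathers in the interior as senescence-associated heterochromatin foci (SAHF), while interleukins and matrix metalloproteinases are induced and cell cycle genes are repressed.

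The bins end at sites of HindIII, the enzyme that cut the chromatin, and 13525 of the 13525 bin edges inside autosomes lay at such a site in GRCh37. To place the loci on which the results turn, the plus strand around the site that opens each of 5 of them is given from the GRCh37 assembly, with the HindIII site in capitals. They are the largest gain between blocks (1q31, intergenic, chr1:187599000-187599125), the region with the highest gain (18q, TCF4 intron, chr18:52996382-52996507), a gene-poor region with higher scores with B bins (13q, intergenic, chr13:62999458-62999583), the deepest loss (16q21, intergenic, chr16:58799695-58799820) and the bin of the metalloproteinase genes MMP1 and MMP3 (11q22, intergenic, chr11:102598902-102599027).
1q31 block: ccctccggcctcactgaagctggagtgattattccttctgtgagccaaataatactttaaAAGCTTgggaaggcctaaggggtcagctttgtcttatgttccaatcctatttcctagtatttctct
18q TCF4 region: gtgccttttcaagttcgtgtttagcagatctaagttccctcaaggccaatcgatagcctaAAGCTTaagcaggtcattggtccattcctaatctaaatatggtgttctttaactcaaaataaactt
13q gene-poor region: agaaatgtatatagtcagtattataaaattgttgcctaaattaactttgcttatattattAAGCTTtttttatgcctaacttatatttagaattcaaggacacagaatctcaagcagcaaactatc
16q21 CDH8 region: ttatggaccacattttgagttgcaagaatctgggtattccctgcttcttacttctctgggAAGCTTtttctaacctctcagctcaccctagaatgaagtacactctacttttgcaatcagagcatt
11q22 MMP1 bin: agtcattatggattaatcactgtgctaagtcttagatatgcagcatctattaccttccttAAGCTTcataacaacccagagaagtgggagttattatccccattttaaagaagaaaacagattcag
A and T made up 73.8% of the 13q window, the highest share of the 5, and 56.3% of the 1q31 window, the lowest. These windows of 126 bases do not stand for the composition of the loci. The GC content was 35.0% over the 1q31 bins at chr1:186999845-189000477 and 34.2% over the 13q region. It was 36.8% over the 16q21 region, 38.5% over the TCF4 region and 39.7% in the MMP1 bin.

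Most bins had lower distal scores in OIS than in Grow. The distal change of a bin, its mean OIS score minus Grow score over distal pairs, had a median of -0.0678 score units (SD over bins 0.117, from -0.900 to 0.266) and was below 0 in 75.8% of kept bins. That median was -0.00642 when the mean change at each distance was subtracted and -0.154 with unlisted pairs at the lowest score. A bin was called gained when its distal change lay at least 0.2 above that median (over 0.132) and lost when it lay at least 0.2 below it (under -0.268). By this rule 217 bins (1.73%) gained and 685 bins (5.47%) lost contact, which is the background for the lists and regions below. Over the alternatives the gained bins numbered 199 to 885 and the lost bins 488 to 1553. The median bin rested on 528 pairs, and single pairs varied widely, with a median SD of 0.586 over the pairs of a bin. Of the lost bins 599 were B (87.4%), compared with 57.9% of all kept bins, whereas 116 of the gained bins were B (53.5%). Bins without a protein-coding gene start made up 65.9% of the gained, 65.3% of the lost and 47.9% of all kept bins. In OIS-shA1 minus Grow-shA1, which shares no map with OIS minus Grow, the median was -0.0492, and the distal changes of the 12525 bins correlated with Pearson's r = 0.830, bins of one map not being independent.

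The partners with which contact was lower differed between compartments. For A bins the median change was 0.0116 with other A bins and -0.114 with B bins. For B bins it was -0.129 with A bins and -0.0706 with B bins. Local contact (2 Mb or less) of B bins was lower by a median change of -0.225, compared with -0.0238 for A bins. The bins were also divided by base composition, A and B bins together. In the fifth of kept bins with the lowest GC content (mean 35.4%) the median change was -0.217 with A bins, 0.0411 with B bins and -0.425 with local partners. In the fifth with the highest GC content (mean 47.3%) it was -0.00924 with A bins, -0.163 with B bins and 0.0446 with local partners. Over the 7250 B bins, which share both libraries, local change followed GC content with Pearson's r = 0.568 and Spearman's rho = 0.606, so AT-rich B bins had the lowest local change. The density of HindIII sites varies with base composition, and its part in these values was not tested.

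Contacts were next divided by chromosome arm. Within arms, the mean distal score was lower in OIS on 38 of 39 arms, and 1p alone was higher (0.0858 in Grow and 0.125 in OIS, a change of 0.0390). The median of all bins was itself below 0 (-0.0678) and depended on centring by distance. The number of arms with lower distal scores was not recomputed after centring. The lowest changes were on 16q (0.385 in Grow and 0.0293 in OIS, a change of -0.355), 19p (-0.340) and 9p (-0.324). Pairs of A bins (A-A) were higher on 30 of 39 arms, with a median change of 0.0519. The highest were on 4p (0.273 in Grow and 0.617 in OIS, a change of 0.344), 18p (0.213), 18q (0.207) and 5p (0.203), whereas 19q (-0.112) and 22q (-0.0917) were lowest. Pairs of B bins (B-B) were lower on 33 arms, with a median change of -0.141, the lowest on 16q (1.09 in Grow and 0.665 in OIS, a change of -0.421) and 17q (-0.391). The 6 arms with higher B-B scores were 4q (0.0813), 8q (0.0510), 18p (0.0405), 6q (0.0333), 2q (0.0125) and 17p (0.00134). Pairs of an A with a B bin (A-B) were lower on 38 arms, down to -0.445 on 9p, and 1p was the exception (0.0433). Local contact was lower on 38 arms, down to -0.374 on 9p, and higher on 9q alone (0.0621). The median local change of all kept bins was itself below 0 (-0.120), and local values were not recomputed after centring by distance. The number of arms with higher B-B scores depended on scaling, with 12 when the mean change at each distance was subtracted and 0 when each map was divided by its SD at the same distance.

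**Figure D1:**
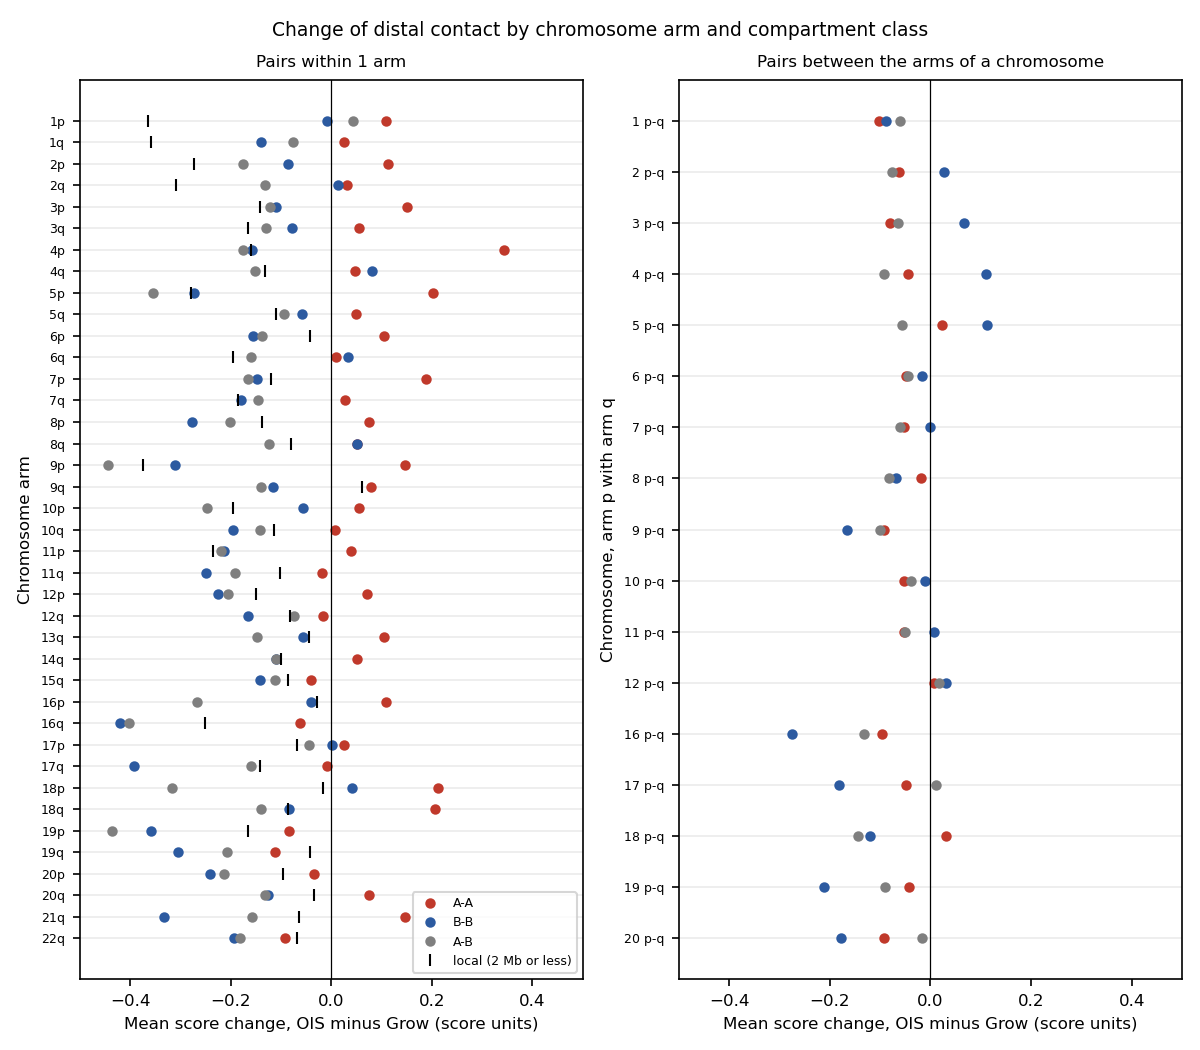
Mean score change (OIS minus Grow, score units) of distal A-A (red), B-B (blue) and A-B (grey) pairs within each of 39 arms (left, local pairs as black ticks) and between the arms of 17 chromosomes (right). Each point is a mean over pairs of 1 map per condition and has no error bar. Within arms the A-A points lie above 0 on 30 arms and the A-B points below 0 on 38, and between arms the B-B points lie above 0 on 6 chromosomes.

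Between the arms of a chromosome the order of the classes was different. A-A pairs were lower between arms on 14 of 17 chromosomes (median change -0.0524), and on 15 their change lay below that of both arms. B-B pairs were higher between arms on 6 chromosomes, the most on 5 (0.201 in Grow and 0.314 in OIS, a change of 0.113), 4 (0.159 and 0.270, a change of 0.111) and 3 (0.120 and 0.187, a change of 0.0672). On 9 of 17 chromosomes the B-B change between arms lay above that of both arms. The lowest B-B changes between arms were on chromosomes 16 (-0.275), 19 (-0.211), 17 (-0.182) and 20 (-0.179). Fewer pairs were listed in OIS, and on chromosome 1 Grow listed 76.5% of the possible pairs between arms and OIS 57.2%. With unlisted pairs at the lowest score the median change between arms was -0.142 for A-A pairs and -0.203 for A-B pairs, compared with -0.0611 for A-B pairs listed in both maps.

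Distance separated the classes further. The mean over A-A pairs of the same arm was higher at every distance, but not on every chromosome. The change was 0.111 at 2 to 5 Mb (higher on 16 of 22 chromosomes), 0.129 at 5 to 10 Mb (20 of 22) and 0.0718 at 10 to 20 Mb (16 of 22). It was 0.0203 at 20 to 50 Mb (11 of 21) and 0.0208 at 50 to 100 Mb (11 of 17). A-B pairs of the same arm were lower on all 22 chromosomes at 2 to 20 Mb, from -0.749 in Grow to -1.08 in OIS at 2 to 5 Mb, a change of -0.331. For B-B pairs of the same arm the sign depended on distance. The change was -0.245 at 2 Mb or less and -0.187 at 10 to 20 Mb, where the score was lower on all 22 chromosomes. It was 0.0740 at 50 to 100 Mb (higher on 8 of 16 chromosomes) and 0.300 at 100 to 300 Mb, where the score was 0.163 in Grow and 0.463 in OIS. That last value rests on the 5 chromosomes with at least 50 such pairs, and all 5 were higher. B-B pairs of different arms at 100 to 300 Mb differed by 0.0218, and A-A pairs of different arms by -0.0725, lower on 12 of 12 chromosomes.

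**Figure D2:**
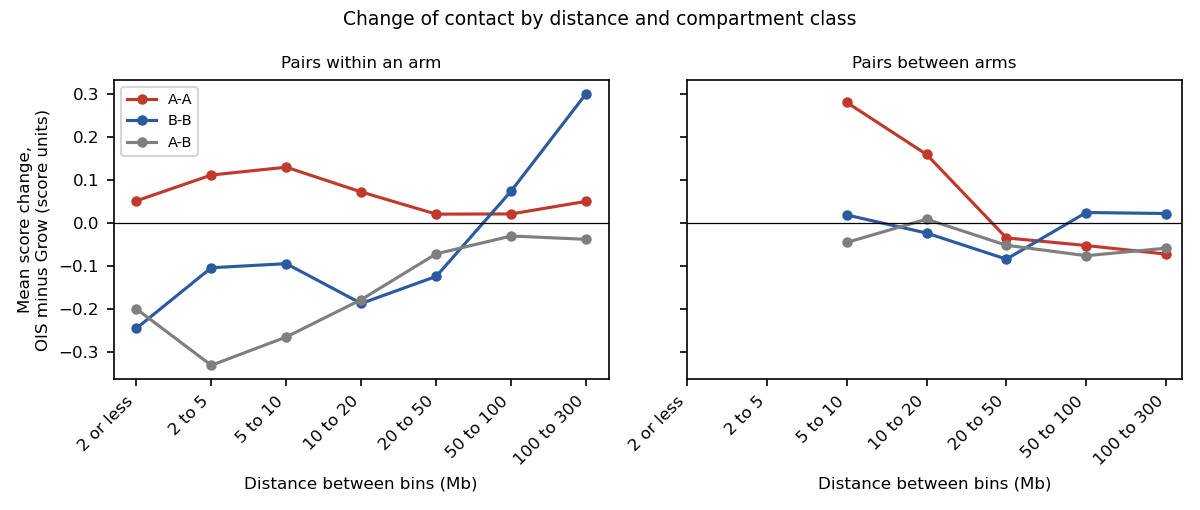
Mean score change (OIS minus Grow, score units) of A-A (red), B-B (blue) and A-B (grey) pairs against distance between bins in Mb, within an arm (left) and between arms (right), for points with at least 4 chromosomes. Each point is a mean over listed pairs, with no error bar. Within arms the B-B line runs from -0.245 at 2 Mb or less to 0.300 at 100 to 300 Mb, while the A-A line stays above 0.

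Gained and lost bins were unevenly spread. Lost bins made up 33.3% of chromosome 21, 31.4% of chromosome 19 and 27.7% of chromosome 16, compared with none of the 1091 bins of chromosome 2 and 2 of the 939 bins of chromosome 3. The limit of 0.2 was the same everywhere, whereas the SD over bins was 0.224 on chromosome 21 and 0.0621 on chromosome 2. Bins of short chromosomes have fewer and nearer partners, and the part of chromosome length in these shares was not tested. By arm the highest shares were on 16q (81 of 191 bins, 42.4%) and 9p (74 of 195 bins, 37.9%). Gained bins were most frequent on 18q (26 of 298 bins, 8.72%), 13q (7.95%) and 8q (6.21%). Of the 694 bins within 5 Mb of a chromosome end 96 were lost and 1 was gained, and their median distal change was -0.161, compared with -0.0621 for the other bins. Of the 11831 other bins 589 were lost and 216 were gained. The median GC content was 44.8% near the ends and 39.5% elsewhere, and its part in this difference was not tested. Contact of one end of a chromosome with the other was higher on 9 of the 13 chromosomes with enough pairs, with a median change of 0.0192.

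Runs of adjacent bins located the losses. Bins in the lowest 2% formed 25 runs of at least 3 bins on 11 chromosomes, 178 bins of which 8 were A. The deepest was a run of 27 B bins at 16q21 (chr16:58799756-64198744), whose left edge is printed above and which overlaps 1 protein-coding gene, CDH8, a type II cadherin gene. Its distal score was 0.564 in Grow and -0.112 in OIS, a change of -0.675 (SD over bins 0.165), with -0.764 with A bins, -0.645 with B bins and -0.758 with local partners. Thus, the whole run was lower with every class of partner, and 13.8% of its pairs were higher in OIS. The value was -0.318 when bins with 80% of pairs listed were required, which can leave out bins of the run and of its partners. With shA1 it was -0.567.

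The next run, of 19 B bins, lay on 17q (chr17:49402272-53201643) and overlaps CA10, KIF2B, TOM1L1, COX11 and STXBP4. KIF2B encodes a mitotic kinesin and COX11 an assembly factor of cytochrome c oxidase. The run scored 0.241 in Grow and -0.392 in OIS, a change of -0.634, and it was lower with both A (-0.558) and B bins (-0.667). With shA1 the change was -0.611.

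On 21q 3 runs were among the 6 deepest. The run at chr21:23400364-25197215 overlaps no protein-coding gene and scored 0.785 in Grow and 0.212 in OIS, a change of -0.573 (-0.294 with shA1). The run at chr21:19398761-22398330 overlaps CHODL, TMPRSS15 and NCAM2, a neural adhesion gene, and scored 0.811 in Grow and 0.266 in OIS, a change of -0.545 (-0.169 with shA1). Local contact of these AT-rich runs was lower as well, by -0.810 and -0.805. The run at chr21:40798339-42599966 has a GC content of 42.2% and overlaps 9 genes, among them DSCAM, which encodes a neural adhesion molecule, and BACE2, which encodes a protease. It scored 0.779 in Grow and 0.230 in OIS, a change of -0.549, but its local change was -0.0203, so the loss there lay in distal contact. With shA1 its distal change was -0.526.

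The sixth run lay on 19p (chr19:22205752-23200124) over a cluster of 8 zinc finger genes, ZNF257, ZNF676, ZNF729, ZNF98, ZNF492, ZNF99, ZNF723 and ZNF728. It scored 0.579 in Grow and 0.0589 in OIS, a change of -0.520 (-0.381 with shA1). The other 19 runs lay between -0.497 and -0.369. Named after their values were seen, they include CDH7 and CDH19 on 18q (-0.436), CNTNAP4 (-0.437) and CDH13 (-0.408) on 16q, and PTPRD (-0.418) and LINGO2 (-0.395) on 9p. With shA1 the change of every one of the 25 loss runs was below 0, from -0.611 to -0.0619.

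Gains were smaller. Bins in the highest 2% formed 27 runs on 9 chromosomes, with 51 A bins among 128. The highest was a run of 5 A bins on 18q (chr18:52996443-54000912) over TCF4, which encodes a transcription factor of the E protein family. It scored -0.517 in Grow and -0.318 in OIS, a change of 0.199, with 0.168 with A bins, 0.223 with B bins and 0.327 with local partners. The gain was thus shared between both compartments (0.145 with shA1). A run of 3 A bins on 7p (chr7:47399654-48000559) with TNS3, a focal adhesion gene, and PKD1L1 scored -0.287 in Grow and -0.0925 in OIS, a change of 0.195 (0.212 with shA1). On 18q a run without protein-coding genes (chr18:37799941-38397117) scored -0.0306 in Grow and 0.159 in OIS, a change of 0.190 (0.144 with shA1).

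The remaining 3 of the 6 highest runs were higher with B bins. On 13q a run of 10 bins (chr13:62999519-65001082, GC content 34.2%) holds only ENSG00000237378 and ENSG00000285566, gene models without a symbol. It scored 0.0234 in Grow and 0.213 in OIS, a change of 0.189 made up of 0.348 with B and -0.0329 with A bins, and its 4 A bins of Grow were B in OIS (0.317 with shA1). On 8q a run of 12 bins (chr8:50198359-52595186) with the syntrophin gene SNTG1 and PXDNL scored -0.0272 in Grow and 0.161 in OIS, a change of 0.188 with 0.270 from B bins (0.0806 with shA1). On 12q a run of 3 bins without protein-coding genes (chr12:43003361-43600741) scored -0.0482 in Grow and 0.138 in OIS, a change of 0.186 with 0.353 from B bins (0.151 with shA1). The other 21 runs lay between 0.184 and 0.136. Named after their values were seen, they include ADGRL3 (0.181) and the GABA receptor genes GABRG1, GABRA2, GABRA4 and GABRB1 (0.155) on chromosome 4, the periostin gene POSTN on 13q (0.172) and EGFR on 7p (0.160). The 12 runs described with both scores kept their sign under each alternative that gave them a value. They were chosen for extreme values in these same maps, so the kept sign is not independent support.

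**Figure D3:**
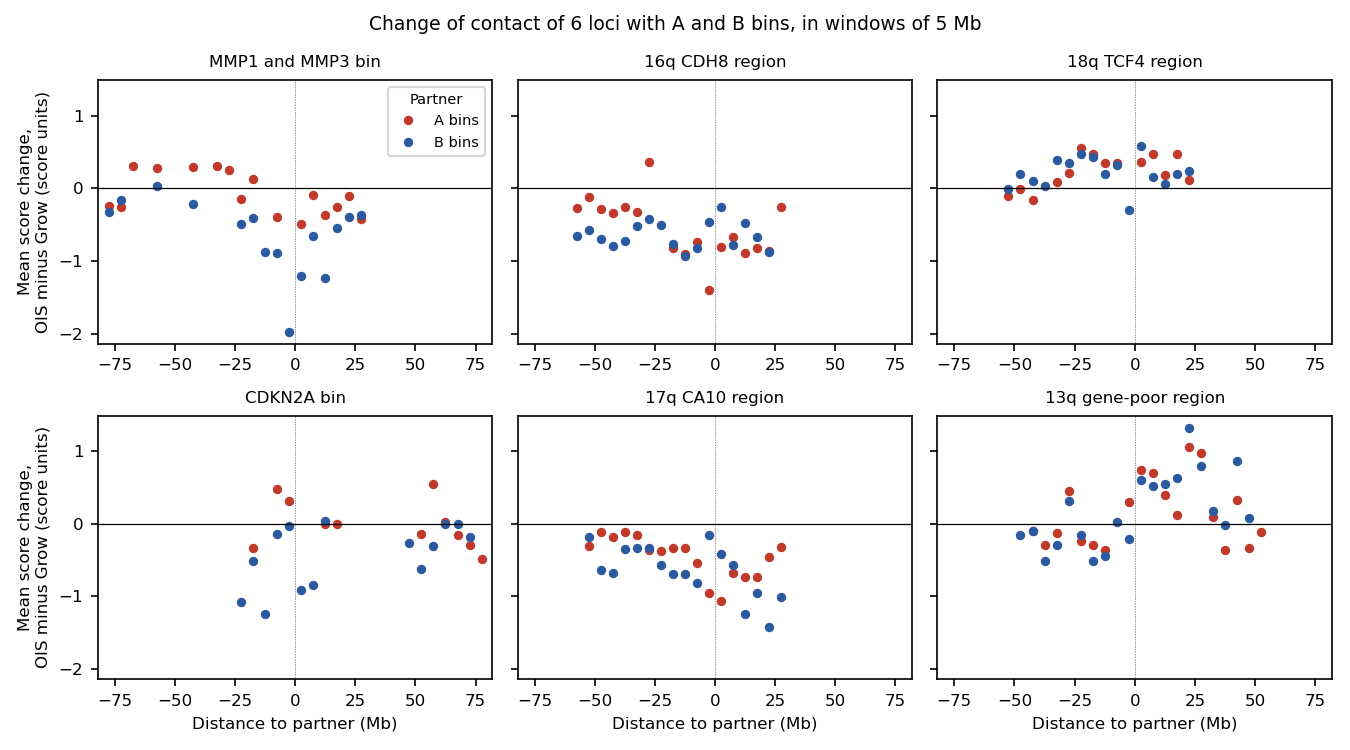
Mean score change (OIS minus Grow, score units) of 6 loci with A bins (red) and B bins (blue) in windows of 5 Mb, against distance to the partner in Mb, negative towards the start of the chromosome. Each point is a mean over pairs, with no error bar. The 16q CDH8 region was lower with B bins in 17 of 17 windows and the TCF4 region higher in 14 of 16, while the MMP1 and MMP3 bin was lower with B bins in 14 of 15 windows and with A bins in 10 of 16.

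Blocks of 5 by 5 bins, about 1 Mb by 1 Mb, show which regions contacted each other. Of 94385 blocks with at least 20 of 25 pairs listed in both maps, 571 were at least 1 score unit higher in OIS and 1283 at least 1 unit lower. Of the 571 higher blocks 79.7% joined B with B and 28.7% joined different arms, compared with 45.9% and 25.6% of all blocks. Of the 1283 lower blocks 49.1% joined B with B, 50.5% were mixed and 0.312% joined different arms. Chromosomes 3 (92) and 4 (91) held the most of the 571, and chromosomes 9, 15, 16, 17, 19, 20, 21 and 22 held 0. Of the lower blocks chromosomes 1 (138) and 7 (118) held the most, while chromosome 9 held 76 and chromosome 16 held 46. Longer chromosomes hold more blocks, and the share of its own blocks was not computed for any chromosome, so these counts do not rank chromosomes.

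The largest gain lay within 1q31, between blocks without protein-coding genes at chr1:187599061-188600296 and chr1:194597058-195605590. Their mean score was 0.904 in Grow and 3.04 in OIS, a change of 2.14 (SD over 25 pairs 0.373). The next block (chr1:188600297-189601814) with the same partner scored 1.43 in Grow and 3.56 in OIS, a change of 2.13. Both were also higher with shA1, by 1.76 and 1.95. On 7q the block of MAGI2 and GNAI1, 5 A bins, scored -0.0273 in Grow and 1.89 in OIS with the block of PPP1R3A, FOXP2 and MDFIC 35.0 Mb away, a change of 1.92 (1.55 with shA1). FOXP2 is a transcription factor of brain development, and GNAI1 encodes an inhibitory G protein subunit.

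Gains also crossed centromeres. On chromosome 3, B blocks without protein-coding genes 80.6 Mb apart scored 1.27 in Grow and 3.002 in OIS, a change of 1.73 (1.63 with shA1). On chromosome 7, the block of DGKB, AGMO and the homeobox gene MEOX2 scored 0.745 in Grow and 2.45 in OIS with the block of PCLO and the semaphorin genes SEMA3E and SEMA3A, a change of 1.71 (0.808 with shA1). The sixth gain lay within 12q, between the block of OTOGL, PTPRQ, LIN7A, ACSS3 and the myogenic factor genes MYF5 and MYF6 and the block of C12orf50, C12orf29, CEP290 and TMTC3, and went from 0.593 to 2.29, a change of 1.70 (1.56 with shA1).

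Of the 6 largest losses 3 were between B blocks far apart. On 17q a block inside the loss run (chr17:50601411-51601180) and the block of SDK2, RPL38 and the CD300 receptor genes about 21 Mb away scored 1.96 in Grow and -0.0588 in OIS, a change of -2.02 (-2.05 with shA1). The KIF2B block with the same partner scored 1.96 in Grow and 0.268 in OIS, a change of -1.69. On 8q the blocks of CSMD3 and the collagen gene COL22A1, 27.0 Mb apart, scored 1.75 in Grow and -0.0365 in OIS, a change of -1.78. These contacts were thus well above the mean for their distance in Grow and near it in OIS.

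The other 3 losses lay between an A or mostly A block and a B block about 3 Mb away. On 5q the block of PCSK1, CAST, LNPEP and the antigen-trimming aminopeptidase genes ERAP1 and ERAP2 scored -1.40 in Grow and -3.22 in OIS with a B block without protein-coding genes, a change of -1.82. On 8p the block of the growth factor gene NRG1 scored -1.30 in Grow and -3.06 in OIS with that of UNC5D, a change of -1.76. On 16q the block of MMP15, GOT2, NDRG4 and other genes scored 0.259 in Grow and -1.48 in OIS with the CDH8 block, a change of -1.74.

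**Figure D4:**
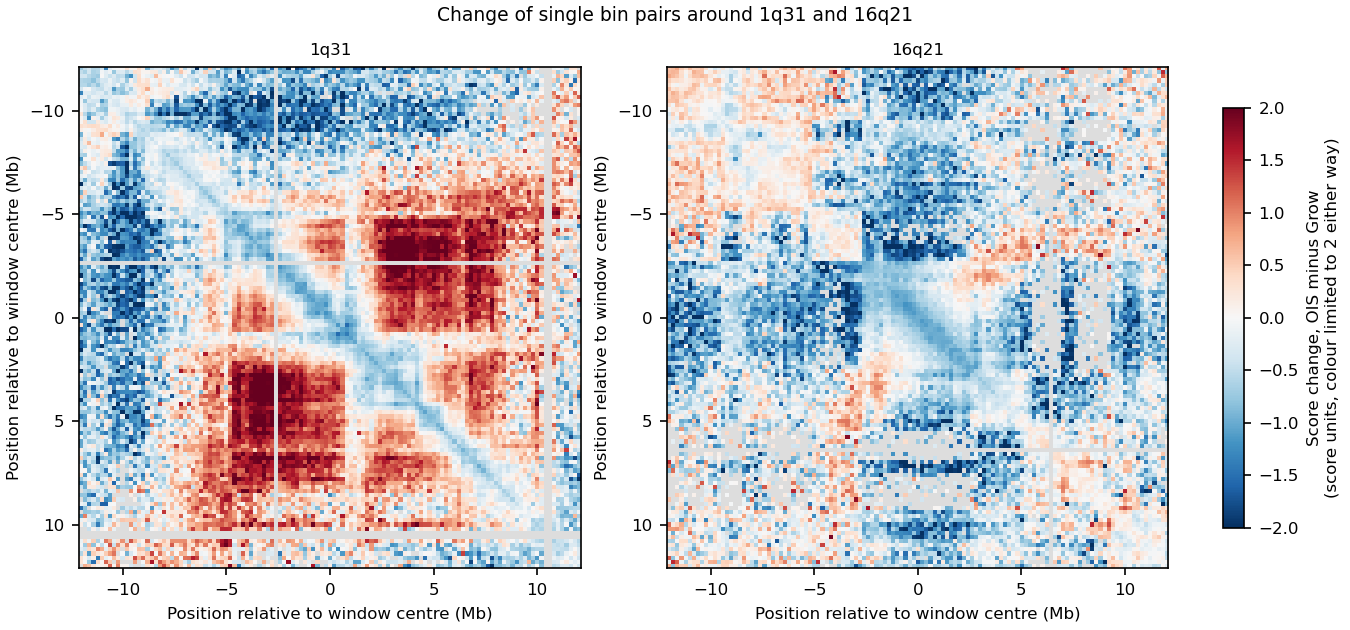
Score change (OIS minus Grow, colour, limited to 2 score units either way) of single bin pairs in windows around the 1q31 block pair (left) and the 16q21 loss run (right). Both axes give position relative to the window centre in Mb, and grey marks pairs without a value. At 1q31 the dark red squares off the diagonal hold the block pair with a change of 2.14, and pairs along the diagonal are lower. At 16q21 the band of the loss run, with a mean of -0.675, is blue along most of its length.

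Compartments assigned in each map moved mostly one way. Of the kept bins 1126 were B in Grow and A in OIS, and 90 were A in Grow and B in OIS. Most were isolated, with 580 of 795 runs of B-to-A bins being single bins, and 49 B-to-A bins and no A-to-B bin were left when the score had to exceed the 20th percentile of its absolute value in both maps. Unlisted pairs counted as 0 in this assignment. At 20 to 50 Mb 92.2% of A-B pairs were listed in Grow and 77.2% in OIS, and the part of this in the changes of sign was not tested. The B-to-A bins had median changes of 0.0729 with A bins and -0.245 with B bins, and 705 of them hold a protein-coding gene start. The A-to-B bins had -0.110 with A and 0.125 with B bins. The compartments come from the same scores, so these changes are not independent of the choice of the bins. The longest runs of B-to-A bins were 3 on 1q31, with 15 bins, 14 bins (chr1:189197112-191999911; BRINP3) and 10 bins (chr1:186999845-189000477; no gene). The first and the last of them hold the block pair with the largest gain. Scores between different runs of these 39 bins were 1.32 in Grow and 2.74 in OIS, a change of 1.42, and 99.6% of the 459 pairs were higher. With other B bins of 1q the runs scored 0.408 in Grow and -0.281 in OIS (-0.689), and with A bins of 1q -0.245 in Grow and -0.382 in OIS (-0.137). The change of sign on 1q31 thus went with higher contact among the runs and not with higher contact with A bins.

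The next longest runs, of 6 bins each, did have higher contact with A bins. The run on 1p with HS2ST1, a heparan sulfate enzyme gene, and the transcriptional regulator gene LMO4 (chr1:87398480-88600096) had changes of 0.174 with A and -0.137 with B bins. The run on 12q with NAV3 and the synaptotagmin gene SYT1 (chr12:78600170-79798725) had 0.196 with A and -0.100 with B bins. The longest A-to-B runs were 4 bins on 1q (chr1:211402457-212202574) with RCOR3, TRAF5, RD3, SLC30A1, NEK2, LPGAT1 and INTS7, and 4 bins inside the 13q gain run (chr13:63399966-64200555), which had a change of 0.437 with B bins. Next came 3 bins on 1q (chr1:204999037-205601455) from CNTN2 to ELK4 and 3 bins on 22q (chr22:27400073-28001817).

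Genes were placed in bins by their start of transcription, and lists were compared with the 1.73% gained and 5.47% lost of all bins and the median of -0.0678. The study-named genes filled 23 bins, of which 0 were gained and 2 lost (8.70%), with a median of -0.0897. The study chose these genes on such samples, so they are not independent evidence. The bin of the matrix metalloproteinase genes MMP1 and MMP3 scored 0.0485 in Grow and -0.250 in OIS, a change of -0.299 (SD over pairs 0.750), with -0.0144 with A and -0.645 with B bins. The mean change with A bins averaged windows that went both ways (from -0.486 to 0.309), whereas that with B bins was negative in 14 of 15 windows, and with the B bins up to 5 Mb towards the start of the chromosome it was -1.11 in Grow and -3.08 in OIS. The bin of CDKN2A, which encodes the cell cycle inhibitor p16, scored 0.191 in Grow and -0.0913 in OIS, a change of -0.283 with a local change of -0.695. Neither call held throughout, as 0 study-named bins were lost with the median over pairs. The count was also 0 with 80% of pairs listed, but that setting leaves bins out, and the MMP1 and MMP3 bin had a value in 12 settings and the CDKN2A bin in 13. It was 1 with division by the SD, with unlisted pairs at the lowest score, over 5 Mb or with every bin of 10 pairs. With pairs of the same arm only it was 4. CDKN2B, the neighbour of CDKN2A, had -0.227 and was not past the limit.

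The other study-named bins lay within the limits. The lowest were those of PCNA, the replication clamp (-0.210), the growth factor gene FGF2 (-0.207), IFNB1 (-0.168), cyclin A2 (CCNA2, -0.163) and the chemokine genes CXCL3 and CXCL2 (-0.161). CXCL8 and CXCL1 (-0.114), IL1A and IL1B (-0.102), CSF2 (-0.0899), the checkpoint kinase gene BUB1 (-0.0897), TGFB1 (-0.0664), CDK1 (-0.0571), RB1 (-0.0559) and FAP (-0.0524) followed. Above 0 were IL6 (0.00475), LUM and DCN (0.00889), TGFBR1 (0.0271), fibrillin 1 (FBN1, 0.0305), the centriole kinase gene PLK4 (0.0622), versican (VCAN, 0.0873) and the collagen gene COL1A2 (0.0882). The collagen, versican and fibrillin genes thus lay at the upper end of this list, as PLK4 did. The local change was 0.553 for CCNA2, 0.455 for RB1 and -0.504 for FAP.

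The lists of fibroblast function and senescence lay on both sides of the median. Of 23 bins of extracellular matrix genes 1 was gained and 0 were lost, the median was 0.00889, and 19 lay above the median of all bins. The gained bin was that of POSTN, which scored -0.183 in Grow and -0.0366 in OIS, a change of 0.146, and the lowest was that of SPARC (-0.179). The median of this list was -0.0508 with unlisted pairs at the lowest score. Of 29 bins of secretory phenotype genes 4 were lost (13.8%), with a median of -0.110, and 2 were lost with centring by distance, with division by the SD or over 5 Mb. They were the bins of the cytokine gene LIF (0.135 in Grow and -0.171 in OIS, a change of -0.306), MMP10, MMP1, MMP3 and MMP12 (-0.299), the gelatinase gene MMP2 (-0.294) and the chemokine gene CCL8 (-0.289), and the highest was that of IGFBP7 (0.131). MMP2 lies on 16q, CCL8 on 17q and LIF on 22q, where 42.4%, 12.7% and 11.4% of all bins were lost. The MMP1 bin lies on 11q, where 2.68% were lost. Of 15 TGF beta signalling bins 1 was lost, SMAD2 (-0.306), and its inhibitory relative SMAD7 was highest (0.121).

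Lists of the cell cycle and of nuclear architecture had few or no called bins. None of 31 cell cycle bins was called, between KIF23 (-0.219) and PLK4 (0.0622), with a median of -0.0603. Of 10 bins of arrest regulators 2 were lost, CDKN2A and the pocket protein gene RBL2 (0.526 in Grow and 0.214 in OIS, a change of -0.313), and CDKN1B was highest (0.0310). These 2 genes lie on 9p and 16q, where 37.9% and 42.4% of all bins were lost. The count was 1 without chromosome 16, with unlisted pairs at the lowest score or with the median over pairs, and 0 with 80% of pairs listed. The first and the last of these settings leave bins out. None of 7 lamina and envelope bins was called, between LEMD3 (-0.168) and SYNE2 (0.0347), nor any of 17 chromatin architecture bins, between HMGA2 (-0.197, with a local change of -0.719) and HMGB1 (0.0990).

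Families clustered on a chromosome with many lost bins were compared with its other bins. Of 86 bins of zinc finger genes of chromosome 19, 40 were lost (46.5%), with a median of -0.254, the lowest being ZNF257 and ZNF676 (-0.555) and the highest ZNF574 (0.0836). The other bins of chromosome 19 had a median of -0.169, and 32 of 143 (22.4%) were lost. The 40 became 24 after centring by distance and 18 with 80% of pairs listed, a setting that leaves bins out. All 4 lost bins of keratin and keratin-associated protein genes, of 20, were among the 7 KRTAP bins of 21q, where 32.3% of other bins were lost, and KRT80 on chromosome 12 was highest (0.0529). Of 4 type I interferon bins on 9p 1 was lost, that of IFNA8, IFNA1 and IFNE (-0.302), beside 38.2% of the other 9p bins. The highest was IFNB1 (-0.168).

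**Figure D5:**
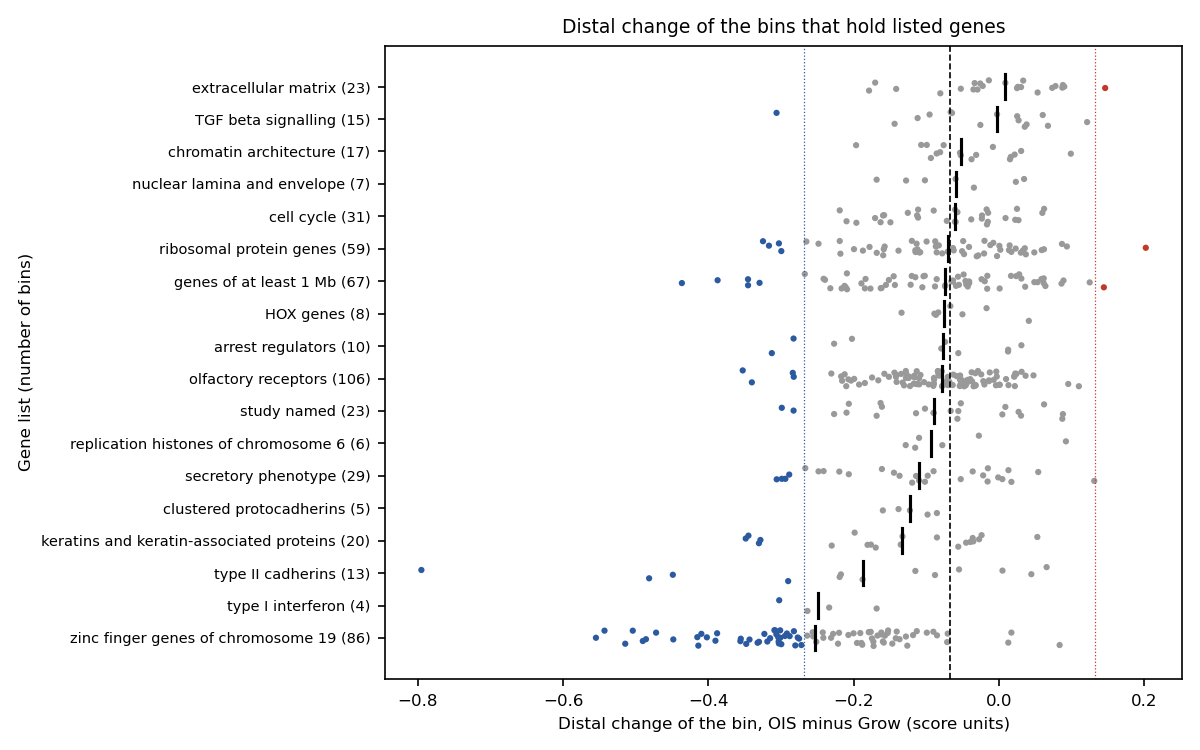
Distal change (OIS minus Grow, score units) of every bin that holds a listed gene, with gained bins in red, lost bins in blue, others in grey and a black tick at the median of each list. Dashed and dotted lines mark the median of all kept bins (-0.0678) and the limits of the calls (0.132 and -0.268). The zinc finger bins of chromosome 19 have the lowest median (-0.254) and the extracellular matrix bins the highest (0.00889).

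Of 13 type II cadherin bins 4 were lost (30.8%), with a median of -0.188. They were CDH8 (0.722 in Grow and -0.0732 in OIS, a change of -0.795), CDH7 (-0.482), CDH19 (-0.449) and CDH11 (-0.290), whereas CDH6 was highest (0.0657). CDH8 and CDH11 lie on 16q, where 79 of 188 other bins (42.0%) were lost, and CDH7 and CDH19 on 18q, where 15.6% of other bins were lost. The count was 2 without chromosome 16, 7 at 2 to 50 Mb and 8 with pairs of the same arm only. In the last 2 settings 1551 and 1553 of all 12525 bins were lost. Of 67 bins of genes of at least 1 Mb 5 were lost (7.46%) and 1 was gained, near the background in the main setting. The lost bins were those of the receptor phosphatase gene PTPRD (0.795 in Grow and 0.358 in OIS, a change of -0.436), LINGO2 (-0.387), MACROD2 and CDH13 (both -0.345) and NRXN3 (-0.330). Over the alternatives the lost bins of this list numbered 1 to 18, with 18 at 2 to 50 Mb and 18 with pairs of the same arm only. None of 5 clustered protocadherin bins was called (median -0.122).

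The remaining lists lay near the background. Of 106 olfactory receptor bins 4 were lost (3.77%), the lowest that of OR2V1 and OR2V2 (-0.353), and the highest was that of the OR5H2 cluster (0.110). Of 59 ribosomal protein gene bins 4 were lost, among them those of RPL10L (-0.325), RPL8 (-0.317) and RPL35A (-0.303), and 1 was gained, that of RPL19 (0.202). None of 8 HOX bins was called, between HOXD (-0.134) and HOXB (0.0412). The 6 bins of replication histones of chromosome 6 ranged from -0.128 to 0.0923, with no call.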

How the data were processed

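Reads were aligned by the authors to hg19 with HiC-Pro 3.1.0, cleared of artefacts and duplicates, counted in bins of about 200 kb, balanced by iterative correction (ICE) and corrected for distance. Within a map these steps are meant to remove differences in total contact per bin and in decay with distance. Mean scores at a given distance still differed between the 2 maps, since centring by distance changed the median of all bins. Each deposited value is a score. It behaves as a logarithm, but its base and prior are not stated, so differences are in score units and not folds. The files give no counts, so the depth behind a score is not known from them, and 0 columns of samples were left unused. The shA1 maps pool 2 samples each, and the Grow and OIS maps match no sample.

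Scores were subtracted pair by pair, over pairs listed in both maps, in Python 3.11.15 with numpy 2.4.6, pandas 2.3.3, scipy 1.17.1 and matplotlib 3.10.9. Compartments were the first principal component of the correlation matrix per chromosome, oriented by protein-coding genes (GENCODE 44, lifted to GRCh37). Arms were split at the longest run of N. The code of the calls was checked on known shifts added to the Grow map with independent noise, which does not measure how reliable the calls are. No test between conditions was possible. The members and lists were chosen with earlier results of these data known. Named were the study's genes, the highest and lowest bin of each other list, the 6 highest and 6 lowest runs and blocks (at most 2 blocks per chromosome in each direction), and the 5 longest B-to-A and 3 longest A-to-B runs. Alternatives changed values, pairs, bins, distance, compartments, blocks and chromosomes. Some genes that the rule would name are not reported here.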

Additional observations from a re-analysis of the deposited data

Results flagged for a closer look

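Among the 39 arms, the 17 pairs of arms, the gene list medians and the bins named by rule or called in a list, 12 values had the opposite sign without and with shA1. The difference was not tested, since there was 1 map per condition. The distal change was -0.0112 between the arms of chromosome 3, compared with 0.00286 in OIS-shA1 minus Grow-shA1. It was -0.0902 within 4p (0.0518 with shA1), -0.0235 within 4q (0.0195 with shA1) and 0.0103 between the arms of chromosome 4 (-0.00781 with shA1). Within 13q it was -0.0660 (0.000763 with shA1). Among genes, the bin of CXCL8 and CXCL1 had -0.114 (0.00737 with shA1), that of CDK1 -0.0571 (0.0374 with shA1) and that of FAP -0.0524 (0.0254 with shA1). The bin of HMGA2 had -0.197 (0.0169 with shA1) and that of SYNE2 0.0347 (-0.0995 with shA1). The median was -0.00256 for the TGF beta signalling list (0.0325 with shA1) and -0.0524 for the chromatin architecture list (0.0110 with shA1). The maps with and without shA1 are of different data sets, and the part of that in these values cannot be told apart from shA1.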

How the results depend on the processing

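Of 1064 values recomputed under 18 settings, 3 of them chosen after seeing the data, 948 stayed within the spread or within 1.5 times a count and 116 moved. The cause of these moves was not tested. A change of sign was counted only for the named runs and the called study-named bins, chosen for large values, and was found for 0. Other values did change sign, such as IL6 (from -0.102 to 0.159) and the cell cycle median (from -0.176 to 0.0136). The 217 gained bins became 700 with scores divided by the SD at the same distance, 444 with unlisted pairs at the lowest score, 885 at 2 to 50 Mb, 801 with pairs of the same arm only, 328 with every bin of 10 pairs and 438 with 80% of pairs listed. The 685 lost bins became 1178 with division by the SD, 1551 at 2 to 50 Mb and 1553 within the same arm. The 6 arms with higher B-B scores became 12 after centring by distance, 0 after division, 3 with unlisted pairs at the lowest score and 12 with OIS compartments, and the 1 arm with higher A-B scores became 4, 2, 0 and 0. After division the median change of A-A pairs between arms was -0.154, of B-B pairs within arms -0.281 and of A-B pairs between arms -0.00577. With unlisted pairs at the lowest score A-A between arms was -0.142 and A-B between arms -0.203, and with OIS compartments A-B between arms was -0.107. The 1126 B-to-A and 90 A-to-B bins became 49 and 0 above the 20th percentile, and A-to-B bins became 246 with a component per arm, where the OIS component of 1q was oriented the opposite way. In blocks of 10 by 10 bins 0.329% were at least 1 unit higher and 0.750% lower, compared with 0.605% and 1.36%. The median of all bins ranged from -0.154 to -0.00642. No paired analysis was possible because there was 1 pooled map per condition. The files give no depth, and A-B pairs 100 to 300 Mb apart were listed in both maps for only 34.4% of possible pairs.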
